A study of Mus musculus with 8 samples.

Results

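The 8 genes described here encode proteins of the zymogen granule and the water channels of the pancreatic acinar cell. They were taken by symbol from gene-level RNA-seq tables of 36432 mouse gene IDs, and all 8 were present with an estimate in every library. Gp2, Zg16, Sycn and Cuzd1 encode proteins of the granule membrane or its inner face. Dmbt1 and Tff2 encode secreted glycoproteins and peptides of mucosal defence, and Aqp8 and Aqp12 encode aquaporins. The data are poly(A) RNA-seq of whole pancreas from 8 mice of mixed strain aged 6 to 8 weeks. The 4 controls had the genotype Ptf1a-Cre +/KI, and 4 further mice had the genotype Ptf1a-Cre +/KI; Gata6 lox/lox. All 8 mice therefore carried a heterozygous knock-in of Cre recombinase at Ptf1a, a gene of pancreatic progenitors and acinar cells, so any effect of that allele is shared by both groups. Cre drives recombination in the lineages that have expressed Ptf1a, and whole pancreas also holds vessels, nerves, fat and immune cells outside them. The question is what the level of these RNAs is once Gata6, which encodes a DNA-binding factor of endoderm and pancreas, has been targeted in that organ. The labels list the mice as separate samples and say no more about how they were raised or collected.

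Acinar cells make the digestive enzymes and pack them into zymogen granules, which fuse with the apical membrane when the cell is stimulated. The granule membrane carries glycoproteins and lectin-like proteins that bind or order its contents, and the fluid that flushes the released enzymes into the ducts passes partly through aquaporins. Genes of this programme are known to be controlled in acinar cells by a complex of PTF1A with RBPJL, whose sites join a CANNTG box to a TGGGAA box. GATA factors bind motifs such as AGATAA.

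Promoter windows from RefSeq (build GRCm38.p6, another build than the mm9 of the deposited tables) were found for 5 of the 8 genes, namely Gp2, Sycn, Cuzd1, Aqp8 and Aqp12. Each window of 300 bases ran from 250 bases before the gene's start to 50 after it. The windows of Aqp12, Sycn, Gp2 and Cuzd1 are shown up to 10 bases past the start, so that genes whose levels varied together across the libraries can be set side by side. Aqp8, whose levels followed the others less closely, is not shown. The windows lie at chr1:93006084-93006343 (plus strand), chr7:28540635-28540894 (plus strand), chr7:119459263-119459522 (minus strand) and chr7:131322283-131322542 (minus strand), each 260 bases long and written 5′ to 3′ on the gene's strand. Capitals mark each match on either strand to the GATA motif AGATAA, the box TGGGAA and the box CANNTG, and none of the matches overlapped another.
Aqp12: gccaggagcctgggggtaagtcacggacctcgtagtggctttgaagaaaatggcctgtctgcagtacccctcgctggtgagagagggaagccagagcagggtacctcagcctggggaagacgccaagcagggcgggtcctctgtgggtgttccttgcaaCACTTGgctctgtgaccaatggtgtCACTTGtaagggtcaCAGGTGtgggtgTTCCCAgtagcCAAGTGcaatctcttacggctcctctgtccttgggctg
Sycn: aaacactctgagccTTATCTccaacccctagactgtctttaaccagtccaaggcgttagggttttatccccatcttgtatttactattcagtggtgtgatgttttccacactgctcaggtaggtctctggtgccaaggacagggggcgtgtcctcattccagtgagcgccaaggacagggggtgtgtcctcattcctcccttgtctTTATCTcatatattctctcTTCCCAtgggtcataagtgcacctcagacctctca
Gp2: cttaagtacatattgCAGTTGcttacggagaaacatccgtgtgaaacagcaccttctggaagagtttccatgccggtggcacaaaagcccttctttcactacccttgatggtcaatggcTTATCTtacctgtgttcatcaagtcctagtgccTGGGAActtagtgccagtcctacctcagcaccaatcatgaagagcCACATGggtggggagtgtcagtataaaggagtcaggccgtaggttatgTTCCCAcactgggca
Cuzd1: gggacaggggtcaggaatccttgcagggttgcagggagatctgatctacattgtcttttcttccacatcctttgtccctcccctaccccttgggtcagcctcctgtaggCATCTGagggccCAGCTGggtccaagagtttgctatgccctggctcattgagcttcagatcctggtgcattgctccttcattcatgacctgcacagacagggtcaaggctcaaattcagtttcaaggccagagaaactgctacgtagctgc

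The Aqp12 window held CANNTG boxes that began 91, 66, 51 and 28 bases before the start. Its TGGGAA box, read on the opposite strand as ttccca, began 39 bases before the start. The boxes at 51 and 28 lay 6 and 5 bases from it. A pair no more than 6 bases apart was found in 1.98% of the 32851 promoter windows of the table, and among the 5 matched genes Aqp12 alone had one. The Sycn window held AGATAA on the opposite strand at 236 and 44 bases before the start and TGGGAA at 25. The Gp2 window held AGATAA at 131, TGGGAA at 98 and 5, and CANNTG at 235 and 53. AGATAA occurred in 11.2%, TGGGAA in 25.6% and CANNTG in 72.3% of all windows of that length. The Aqp8 window had TGGGAA at 246 and CANNTG at 138 and 75, and the Cuzd1 window had CANNTG at 141 and 129. These are matches of letters in one window per gene, not binding sites.

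All levels are in rescaled FPKM, which is FPKM (fragments per kilobase of transcript, scaled for depth) as deposited over a constant of 100000. The tables do not share one library size, so 1 rescaled FPKM is no set number of transcripts. The fragments implied by the deposited intervals summed to between 4811636 and 7420148 per library. That sum covers genes with an estimate and without a failed status in every library. Controls had 18345 to 19729 genes above 0. The 4 libraries of the second group had 23024, 20193, 22715 and 19684, and they are called labelled libraries 1 to 4, since the targeted gene did not check their label. Gata6 stood at a mean of 2.49 ± 0.28 rescaled FPKM in the controls and 4.74 ± 0.43 in the libraries labelled Gata6 lox/lox (SD, n = 4 each). That is a log2 fold change of 0.72 (SE 0.11; limma, Benjamini-Hochberg adjusted p = 0.0443), and the exact permutation test (two-sided) gave p = 0.0286, its smallest possible value with 4 against 4. A gene-level value does not resolve the floxed part of Gata6. The sample titles start with BKD for control 1 and for labelled libraries 1, 3 and 4, with ASK for controls 2 to 4 and with BSH for labelled library 2.

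All 8 genes had a lower mean in the labelled libraries than in the controls and a negative log2 fold change, as 42.1% of all genes tested had, and none passed the test. The spread was between the labelled libraries. In labelled library 1 the genes stood at between 0.260% (Aqp12) and 4.87% (Dmbt1) of their control mean, and in labelled library 3 at between 5.01% (Aqp12) and 34.7% (Aqp8). In labelled library 2 they stood at 38.7% (Gp2) to 63.1% (Dmbt1), and in labelled library 4 at 37.4% (Aqp8) to 89.8% (Dmbt1). Of the 8 genes, 6 had every labelled library below every control, against 7.62% of the 11860 genes tested. None of the 8 was called lower at an adjusted p under 0.05, against 0.194% of all genes, and 6 were lower at an unadjusted p under 0.05, against 12.2% of all genes lower and 30.1% in either direction. Their median log2 fold change was -3.06, against 0.10 over all genes tested, and the log2 fold changes of the 8 were low among all genes. Those of 2.8% of all genes were at or below that of Aqp8, the smallest in size of the 8, and those of 1.8% at or below that of Dmbt1, the next smallest. Fewer acinar cells and less RNA of these genes per acinar cell cannot be told apart in whole pancreas.

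**Figure D1:**
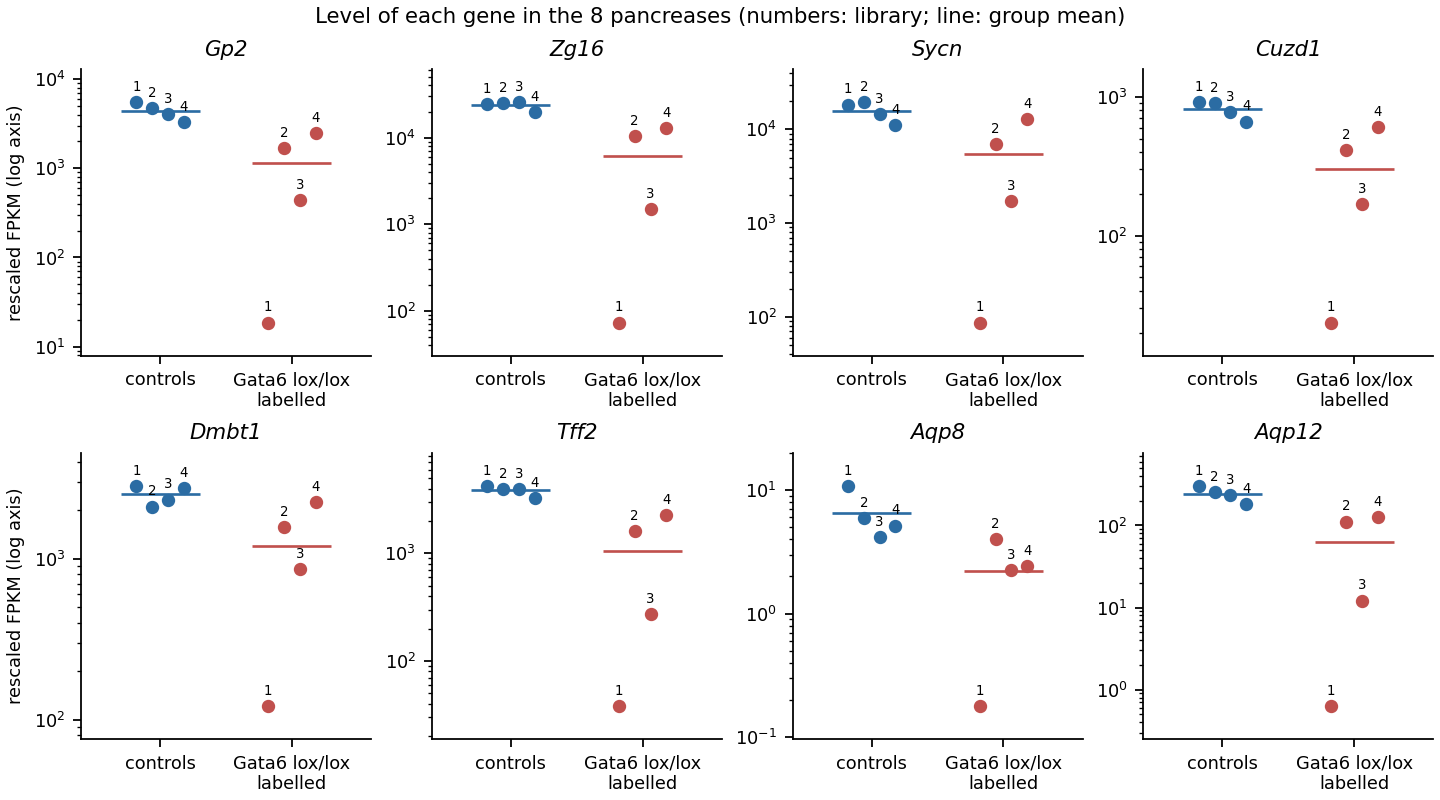
Level of each of the 8 genes in rescaled FPKM (log axis) in the 4 controls and the 4 labelled libraries, with 1 point per library, its number above it and a line at the group mean. Labelled library 1 is the lowest point of every gene, labelled library 3 is the second lowest, and labelled libraries 2 and 4 lie nearest to the controls except for Aqp8, where labelled libraries 3 and 4 are close to each other.

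Gp2 encodes a glycoprotein anchored by a lipid tail in the granule membrane, where it is among the most abundant proteins. It lies on mm9 chromosome 7, from 126586057 to 126602786 (ENSMUSG00000030954, 11 exons in its longest coding transcript). Gp2 stood at 5471, 4674, 4067 and 3323 rescaled FPKM in controls 1 to 4 and at 18.6, 1698, 441 and 2465 in labelled libraries 1 to 4. Every labelled library was below every control, and labelled library 1 was far below the other labelled libraries. The means were 4384 ± 911 and 1156 ± 1127 (SD, n = 4 each), and the log2 fold change was -3.30 (SE 1.37, limma Benjamini-Hochberg adjusted p = 0.155). The control mean was 235-fold the level of labelled library 1 and 1.78-fold that of labelled library 4.

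Zg16 encodes a small lectin-like protein bound to the inner face of the granule membrane, and it was the most abundant of the 8 in every control. The gene spans chromosome 7, from 134193670 to 134195491 (ENSMUSG00000049350, 5 exons). Its levels were 24179, 25198, 25524 and 19695 rescaled FPKM in controls 1 to 4, and 72.8, 10340, 1508 and 12765 in labelled libraries 1 to 4. The groups did not overlap, and the controls were close together while the labelled libraries spanned a 175-fold range. With means of 23649 ± 2697 and 6171 ± 6319 (SD, n = 4 each), the log2 fold change was -3.59 (SE 1.50, limma Benjamini-Hochberg adjusted p = 0.156). Zg16 ranked between 17 and 25 among all genes in the controls, at 21 and 30 in labelled libraries 2 and 4, and at 336 and 62 in labelled libraries 1 and 3. The ranks place genes without an estimate at the 0 listed for them, which differs between libraries.

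Sycn encodes syncollin, a small protein on the inner face of the granule membrane with a part in granule fusion. Its place is chromosome 7, from 29325904 to 29327229 (ENSMUSG00000084174, 2 exons). Controls 1 to 4 held 18447, 19442, 14681 and 11046 rescaled FPKM, and labelled libraries 1 to 4 held 87.0, 6952, 1709 and 12892. Here the groups overlapped, because labelled library 4 was above control 4. The means were 15904 ± 3833 and 5410 ± 5785 (SD, n = 4 each), for a log2 fold change of -3.02 (SE 1.40, limma Benjamini-Hochberg adjusted p = 0.183).

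Cuzd1 encodes a membrane protein of the granule with CUB and zona pellucida-like domains. It lies on chromosome 7, from 138452069 to 138465806 (ENSMUSG00000040205, 9 exons), inside the span the tables give to Fgfr2. The strand of the libraries is not given in the sources used here, so fragments of overlapping genes may be shared. Cuzd1 stood at 911, 900, 772 and 663 rescaled FPKM in controls 1 to 4 and at 23.6, 416, 169 and 602 in labelled libraries 1 to 4. The groups did not overlap, but labelled library 4 came close to control 4. The means were 811 ± 117 and 302 ± 257 (SD, n = 4 each), and the log2 fold change was -2.16 (SE 0.90, limma Benjamini-Hochberg adjusted p = 0.156). Its control mean was 34.4-fold the level of labelled library 1, a smaller ratio than those of Gp2, Zg16 and Sycn.

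Dmbt1 encodes a large scavenger receptor protein, in the mouse pancreas also known as muclin, a sulphated glycoprotein that travels with the enzymes. It lies on chromosome 7, from 138175590 to 138265140 (ENSMUSG00000047517, 48 exons), also within the span of Fgfr2. Its levels in controls 1 to 4 were 2833, 2104, 2324 and 2734 rescaled FPKM, and in labelled libraries 1 to 4 they were 122, 1577, 861 and 2244. Labelled library 4 was above control 2, so the groups overlapped. The means were 2499 ± 343 and 1201 ± 915 (SD, n = 4 each), with a log2 fold change of -1.67 (SE 0.84, limma Benjamini-Hochberg adjusted p = 0.207). In labelled library 1 Dmbt1 was the most abundant of the 8.

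Tff2 encodes a trefoil peptide that is secreted with mucus in the stomach and is also made by acinar cells. It lies on chromosome 17, from 31277994 to 31281227 (ENSMUSG00000024028, 4 exons). Tff2 was measured at 4259, 3987, 3990 and 3264 rescaled FPKM in controls 1 to 4 and at 38.1, 1627, 272 and 2289 in labelled libraries 1 to 4. Every labelled library was below every control. The means were 3875 ± 427 and 1056 ± 1080 (SD, n = 4 each), and the log2 fold change was -3.11 (SE 1.18, limma Benjamini-Hochberg adjusted p = 0.135).

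Since Tff2 is also a stomach gene, the markers of stomach and intestine were read beside it. Controls had a summed level of 1.94 to 3.23 rescaled FPKM of these, and labelled libraries 1 to 4 had 11.0, 179, 5.24 and 4.85. Labelled library 2 held pepsinogen C (Pgc) at 114, Gkn3 at 56.3 and the mucin Muc6 at 6.40. Of the 17 listed markers, 6 were at 0 in all 8 libraries (Gkn1, Gkn2, Atp4b, Fabp2, Alpi and Cdx2). Tff1 and Muc5ac, which mark the surface cells of the stomach, were at 0 in labelled library 2. They reached at most 0.457 and 0.106 in any library, so these zeros do not set that library apart. The part of stomach RNA in the Tff2 level of labelled library 2, 1627, was not tested. The related trefoil genes Tff1 and Tff3 were at or below 0.457 rescaled FPKM in every library.

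Aqp8 encodes a water channel that rodent acinar cells carry in the apical membrane. Its position is chromosome 7, from 130605808 to 130611517 (ENSMUSG00000030762, 6 exons). Aqp8 was the least abundant of the 8 in every library, at 10.8, 5.93, 4.16 and 5.16 rescaled FPKM in controls 1 to 4 and 0.179, 4.04, 2.26 and 2.44 in labelled libraries 1 to 4. The groups did not overlap, although labelled library 2 was just under control 3. The means were 6.52 ± 2.97 and 2.23 ± 1.58 (SD, n = 4 each), and the log2 fold change was -1.32 (SE 0.45, limma Benjamini-Hochberg adjusted p = 0.120). On the scale of log2(rescaled FPKM + 1) the change of so low a gene is understated, and with a pseudocount of 0.1 the log2 fold change was -1.93. Aqp8 rested on 3.48 implied fragments in labelled library 1, with a deposited interval from 0 to 0.371, and on 31.3 to 100.2 in the other libraries.

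Aqp12 encodes an aquaporin of intracellular membranes found in acinar cells. The gene is on chromosome 1, from 94902911 to 94908846 (ENSMUSG00000045091, 3 exons). Its levels were 305, 253, 233 and 182 rescaled FPKM in controls 1 to 4 and 0.632, 112, 12.2 and 128 in labelled libraries 1 to 4. All labelled libraries were below all controls, and the 202-fold range among the labelled libraries was the widest of the 8 genes. The means were 243 ± 51.0 and 63.0 ± 65.8 (SD, n = 4 each), for a log2 fold change of -3.34 (SE 1.28, limma Benjamini-Hochberg adjusted p = 0.137). Labelled library 1 rested on 17.0 implied fragments, with a deposited interval of 0.326 to 0.939 rescaled FPKM. Even the upper bound was far below the 12.2 of labelled library 3. For the 6 granule and secreted genes the deposited intervals reached at most 8.32% of the value on either side, against 4.63% to 48.5% for Aqp12 and 20.0% to 107% for Aqp8. These intervals cover counting and assignment of fragments within a library, not variation between mice.

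The libraries kept one order for all 8 genes at the low end. Labelled library 1 was the lowest and labelled library 3 the second lowest of the 8 libraries for each gene. The median of the 8 genes differed from the control mean by -6.91, -1.13, -3.23 and -0.78 on the log2 scale in labelled libraries 1 to 4, and by 0.22, 0.09, -0.07 and -0.27 in controls 1 to 4. The digestive enzymes, taken as the median of 22 genes, differed by -6.45, -1.04, -3.17 and -0.57 in the same labelled libraries. The acinar transcription factor Bhlha15, which builds the secretory apparatus, stood at 49.3 to 71.6 rescaled FPKM in the controls against 0.476, 36.9, 4.57 and 38.4 in labelled libraries 1 to 4. Ptf1a stood at 9.96 to 12.7 and at 1.18, 4.71, 5.82 and 7.58. In labelled library 1 these defining genes of acinar cells were thus below every other library, and the trypsinogen Prss2 stood at 1572 there.

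**Figure D2:**
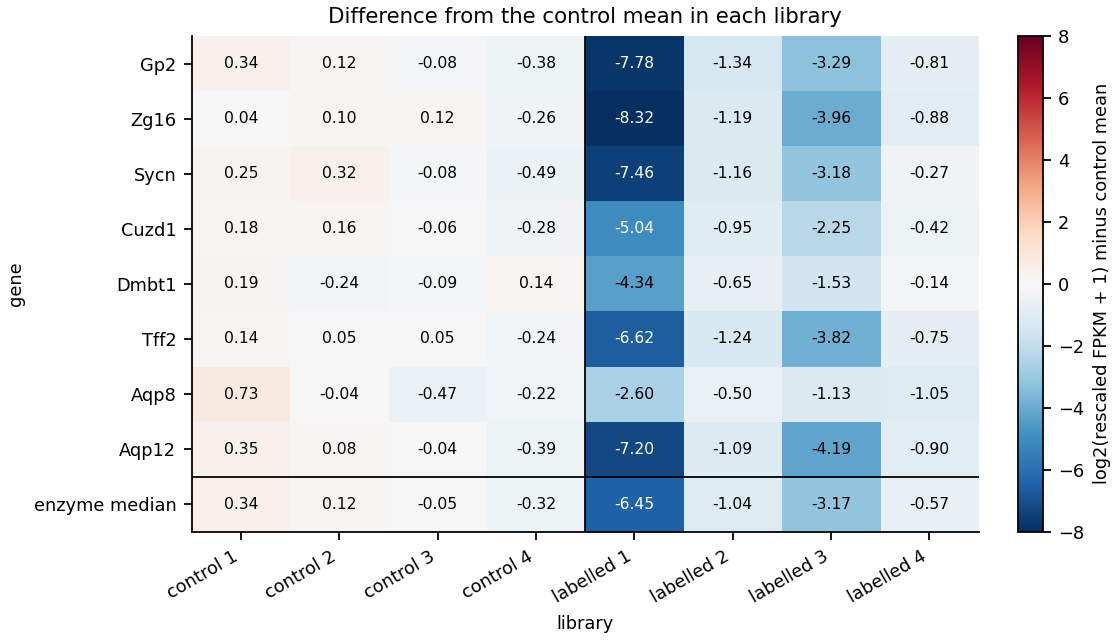
Difference of log2(rescaled FPKM + 1) from the control mean for each of the 8 genes (rows) in each library (columns), with the median of 22 digestive enzymes in the last row; blue is lower and red is higher. The columns of labelled libraries 1 and 3 are the darkest, and the enzyme row takes values between those of the 8 genes.

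Without labelled library 1 the log2 fold changes were -1.81 for Gp2, -2.01 for Zg16, -1.54 for Sycn and -1.21 for Cuzd1. They were -0.77 for Dmbt1, -1.94 for Tff2, -0.90 for Aqp8 and -2.06 for Aqp12. All 8 were thus smaller in size. With labelled library 3 also left out, they lay between -1.08 (Gp2) and -0.40 (Dmbt1). Within the BKD titles (control 1 against labelled libraries 1, 3 and 4) they lay between -4.45 (Aqp12) and -2.19 (Dmbt1), and within the ASK and BSH titles (controls 2 to 4 against labelled library 2) between -1.23 (Gp2) and -0.26 (Aqp8). All 8 genes were lower in both subsets, and each subset has a group of a single library. Limma with sample weights, which gives less weight to libraries that stand apart, called 7 of the 8 lower, all but Dmbt1, and it called 1478 genes lower in all where the test above called 23. Leaving out labelled library 4 gave Tff2 an adjusted p of 0.0488 in limma, and 1200 genes were called lower in that fit.

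The scaling of the tables bears on the size of every fold change. Under a scaling that makes the summed FPKM outside the enzymes and the 8 genes equal, the median log2 fold change of all genes moved from 0.10 to 0.82 and that of the 8 genes from -3.06 to -2.11. None of the 8 then had groups without overlap. Under a scaling to implied fragment totals the medians were 1.11 and -1.69. Each of the 8 genes kept its negative sign under every scaling, down to -0.28 for Dmbt1 with implied totals.

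**Figure D3:**
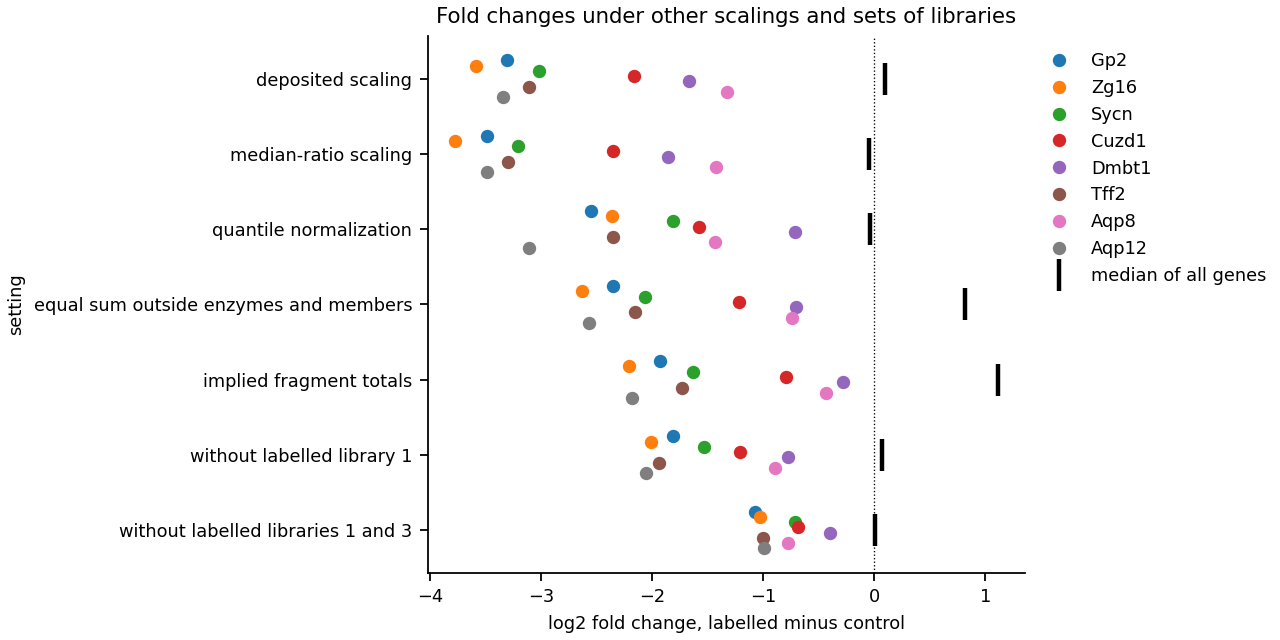
Log2 fold change of each of the 8 genes (coloured points) and median of all genes tested (black bar) under the deposited scaling, 4 other scalings and without labelled library 1 or libraries 1 and 3. All points lie below 0 and below the black bar of the same setting, and they lie closest together without labelled libraries 1 and 3.

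To ask whether these genes moved by another amount than the enzymes stored in the same granules, each log2 value was set against the median of the 22 enzymes in the same library. On that scale none of the 8 genes was called, against 0.304% of all genes, and none was at an unadjusted p under 0.05, against 42.3% of all genes. Neither share is a yardstick for the 8, because the enzymes subtracted were themselves lower in the labelled libraries. The median log2 difference of all genes was 3.19 on that scale, and all 5018 genes under 0.05 were higher. The log2 differences between the groups were -0.21 (SE 0.99) for Gp2, -0.50 (SE 0.78) for Zg16, 0.07 (SE 0.81) for Sycn and -0.02 (SE 1.00) for Tff2. Those of Cuzd1, Dmbt1 and Aqp8 were positive, at 0.93 (SE 1.18), 1.42 (SE 0.99) and 1.77 (SE 1.66), and that of Aqp12 was -0.26 (SE 1.40). Without labelled library 1 the values were 0.53 for Cuzd1, 0.96 for Dmbt1 and 0.84 for Aqp8, and with labelled library 3 left out as well the same genes had 0.22, 0.51 and 0.13. Adjusted p-values in limma ran from 0.165 (Dmbt1) to 0.983 (Tff2). The errors are wide: 2 SE on either side of the value reach from -1.55 to 1.69 for Sycn and from -0.56 to 3.41 for Dmbt1. By these errors a difference from the enzymes of 1 log2 unit or more is not excluded for any of the 8 genes. Limma draws each error toward those of other genes, so it is not the gene's own spread alone. On this scale Gp2, Sycn, Tff2 and Aqp12 lay within 1 log2 unit of their control mean in every library. Zg16, Cuzd1, Dmbt1 and Aqp8 lay beyond it in labelled library 1, at -1.17, 2.11, 2.80 and 4.54. The last 3 also did in labelled library 3, at 1.15, 1.87 and 2.26.

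**Figure D4:**
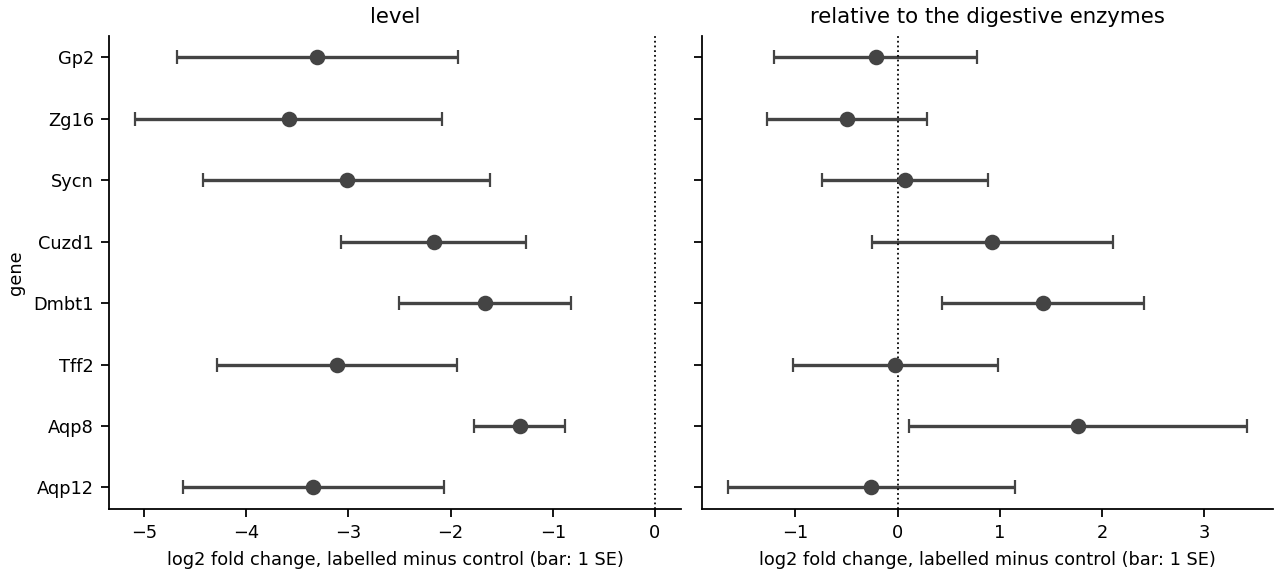
Log2 fold change, labelled minus control, of each of the 8 genes as a level (left) and relative to the median of 22 digestive enzymes in the same library (right), with bars of 1 SE. On the left all points lie between -3.59 and -1.32; on the right they lie on both sides of 0, with Dmbt1 and Aqp8 highest.

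The makeup of the group differed between libraries. Zg16, Sycn, Gp2, Tff2, Dmbt1, Cuzd1, Aqp12 and Aqp8 came in this order of abundance in all 4 controls and in labelled library 2. Of the neighbours in that order, the ranges of Gp2 and Tff2 overlapped over the controls, and those of Zg16 and Sycn nearly met. In labelled library 4 Sycn was above Zg16, and in labelled library 3 Dmbt1 was also above Gp2 and Tff2. Labelled library 1 had the order Dmbt1, Sycn, Zg16, Tff2, Cuzd1, Gp2, Aqp12 and Aqp8. Zg16 and Sycn together made up 75.1% to 78.9% of the summed FPKM of the 8 genes in the controls against 44.1%, 76.1%, 64.7% and 76.8% in labelled libraries 1 to 4. Dmbt1 made up 3.72% to 6.68% in the controls against 33.5%, 6.94%, 17.3% and 6.72% in labelled libraries 1 to 4, above every control in all 4. The 8 genes together held 2.88% to 3.72% of all summed FPKM in the controls against 0.155%, 2.74%, 0.731% and 2.56% in labelled libraries 1 to 4. That total includes digestive enzyme genes that lack an estimate in some libraries and are listed at 0 there. Ctrb1 stood at 0 in controls 1 and 2 and at 136516 in control 3. The totals therefore do not cover the same genes in every library.

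Ratios of one gene to another within a library do not depend on how the libraries were scaled. Of the 28 pairs, 21 had ratios that overlapped between the groups, and 7 did not. Gp2, Zg16 and Tff2 were each lower relative to Cuzd1 and to Dmbt1 in every labelled library than in every control. Cuzd1 and Dmbt1 both lie within the span of Fgfr2, so shared fragments may affect the ratios that hold them. The ratio of Gp2 to Cuzd1 was 5.01 to 6.01 in the controls against 0.790, 4.09, 2.62 and 4.09 in labelled libraries 1 to 4. Zg16 was 7.20 to 12.0 times the level of Dmbt1 in the controls and 0.599, 6.56, 1.75 and 5.69 times in labelled libraries 1 to 4. Tff2 was 1.19 to 1.89 times the level of Dmbt1 in the controls and 0.313, 1.03, 0.316 and 1.02 times in labelled libraries 1 to 4. The ratio of Cuzd1 to Aqp12 was 2.99 to 3.65 in the controls and higher in the labelled libraries, at 37.3, 3.72, 13.9 and 4.72. The pairs share genes and libraries, and the counts are a description without a test. The share of such pairs among all genes was not computed, so 7 of 28 cannot be called unusual. Of single genes tested, 7.62% were lower and 10.9% higher without overlap.

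**Figure D5:**
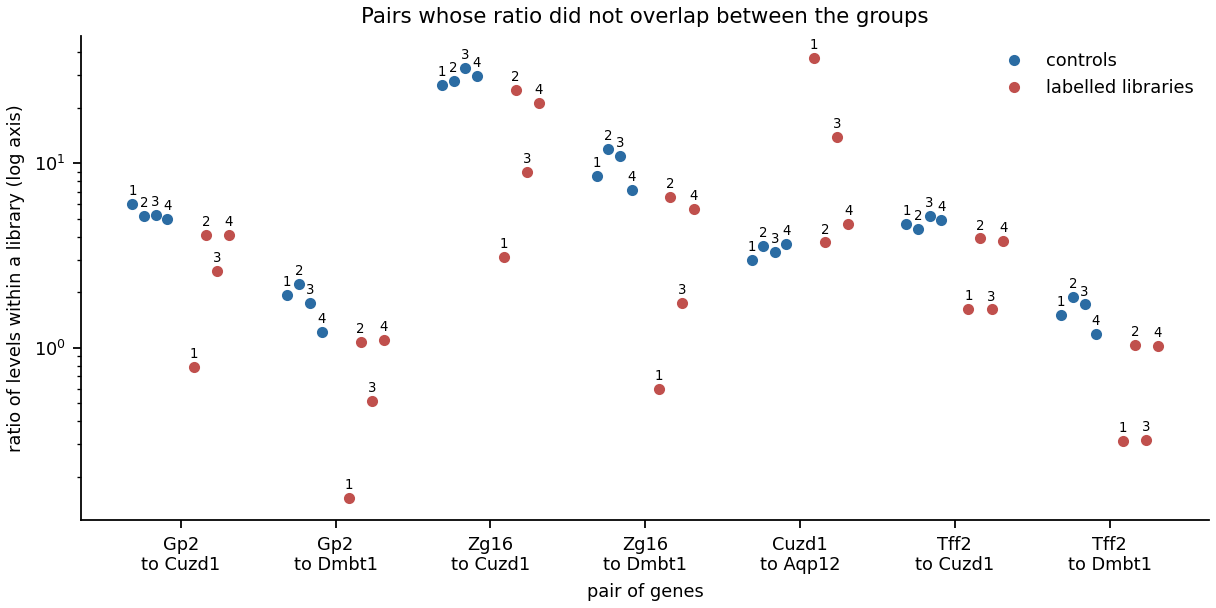
Ratio of the levels of 2 genes within each library (log axis) for the 7 pairs whose ratios did not overlap between the controls (blue) and the labelled libraries (red), with the library number above each point. Labelled libraries 1 and 3 lie farthest from the controls, and labelled libraries 2 and 4 lie just outside the range of the controls for most pairs.

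The genes whose pattern over the 8 libraries was most like that of each of the 8 were named by the Pearson correlation of log2(rescaled FPKM + 1), over 9444 named genes tested. For Gp2 they were the carboxypeptidase Cpb1, the elastase Cela3b and the pancreatic disulphide isomerase Pdia2, and for Cuzd1 the same 3 genes. For Zg16 they were colipase (Clps), Pdia2 and Cela1, and for Sycn trypsinogen Prss2, the lipase Cel and Cela3b. For Tff2 they were Cela1, the zinc transporter Slc39a5 and Cela2a, and for Aqp12 Slc39a5, Ggt1 and Cela1. All of these correlations were 0.997 or higher. Dmbt1 and Aqp8 had other genes nearest to them. For Dmbt1 they were Naprt1 (r = 0.994), Ydjc (0.992) and the trypsinogen Try4 (0.990), and for Aqp8 Triap1 (0.984), Fam173a (0.983) and Fdft1 (0.982). Among the 8 genes, r ran from 0.888 (Dmbt1 with Aqp8) to 0.999 (Gp2 with Cuzd1). The points share the library scaling, and the low values of labelled libraries 1 and 3 weigh in every one of these correlations.

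The rest of the secretory machinery was read from fixed lists. Of 32 genes of the granule membrane and exocytosis, 28 were tested, of which 14 had a positive and 14 a negative log2 fold change, with a median of 0.07 against 0.10 over all genes. None was called, against 0.413% of all genes in either direction, while 8 of the 28 were lower and 3 higher at an unadjusted p under 0.05, against 12.2% lower and 17.9% higher among all genes. Rab3d, the small GTPase of the granule surface, stood at 38.1 to 51.6 rescaled FPKM in the controls against 6.32, 23.6, 13.7 and 34.1 in labelled libraries 1 to 4, without overlap (log2 fold change -1.36). Vamp8, the granule's fusion protein, stood at 46.0 to 56.1 and at 17.3, 29.5, 28.7 and 40.2, also without overlap (log2 fold change -0.82). Rab11a, a GTPase of recycling membranes, and Stxbp2, a partner of syntaxins, differed by -0.02 and -0.06. Rab26, another granule GTPase, had a log2 fold change of -1.52. The difference between this list and the 8 genes was not tested.

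Of the 10 other aquaporins, only Aqp1, the water channel of vessels and ducts, reached the tested level. It stood at 8.46 to 12.6 rescaled FPKM in the controls against 14.5, 9.03, 14.4 and 13.0 in labelled libraries 1 to 4 (log2 fold change 0.28). Aqp11 stood at 0.697 to 1.46 over all libraries. Aqp7, a glycerol channel of fat cells, ranged over the controls from 0.0609 to 0.595 and over the labelled libraries from 0.756 to 2.42. Mip and Aqp6 were at 0 in all libraries. Of 22 genes of fluid and ion transport, 16 were tested and none was called, against 0.413% of all genes. They had 7 positive and 9 negative log2 fold changes, against 57.9% positive and 42.1% negative among all genes. Their median was -0.06, against 0.10 over all genes. In limma 2 of the 16 were lower and 1 higher at an unadjusted p under 0.05, against 12.2% lower and 17.9% higher among all genes. These were Kcnq1 (log2 fold change -1.11), Slc26a6 (-0.71) and Atp2b1 (0.59). The calcium pump Atp2a2, which refills the endoplasmic reticulum, differed by -0.05.

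Of 18 trefoil, mucin and mucosal defence genes other than the 8, only 5 reached the tested level. Of these, 4 had a positive and 1 a negative log2 fold change, against 57.9% and 42.1% of all genes. None was called, against 0.413% of all genes. The membrane mucin Muc1 stood at 109 to 161 rescaled FPKM in the controls against 11.9, 60.5, 31.3 and 103 in labelled libraries 1 to 4 (log2 fold change -1.75), without overlap. The galactose-binding lectin Lgals3 stood at 3.27 to 5.83 in the controls and at 30.5, 10.9, 28.5 and 4.70. All 11 acinar transcription factors had a negative log2 fold change, against 42.1% of all genes, with a median of -0.68, and none was called, against 0.413% of all genes. The most abundant of them, Xbp1, a regulator of the secretory pathway, stood at 179 to 203 in the controls and at 43.1, 137, 106 and 297, and Rbpjl stood at 35.0 to 67.5 and at 2.76, 51.6, 10.8 and 46.7.

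Markers of several other cell types were higher in the labelled libraries. All 12 adipocyte markers had a positive log2 fold change (median 1.71), against 57.9% of all genes. Of these, 4 rose (Pck1, Cidec, Plin4 and Cd36), against 0.219% of all genes called higher. Their summed level was 85.5 to 242 rescaled FPKM in the controls against 558, 485, 419 and 495 in labelled libraries 1 to 4. The summed fibroblast markers stood at 240 to 341 and at 983, 402, 1419 and 457, and the summed macrophage markers at 118 to 182 and at 977, 301, 839 and 235. For each of these 3 lists the sum of every labelled library was above that of every control. In each, 9 of the 12 single markers were higher without overlap, against 10.9% of all genes. None of the fibroblast, macrophage, islet, lymphocyte, duct or liver markers was called, against 0.413% of all genes in either direction. Fibroblast and macrophage markers were highest in labelled libraries 1 and 3, where the 8 genes were lowest, but the adipocyte sum was lowest of the labelled libraries in library 3. Islet markers summed to 561 to 1481 in the controls and 5995, 1498, 948 and 767, and lymphocyte markers to 45.7 to 182 and 113, 131, 425 and 122. Duct markers summed to 179 to 235 and 277, 140, 173 and 146, of which Muc1 was the larger part in the controls. Without Muc1 the other 10 summed to 69.9 to 84.9 in the controls and to 265, 142 and 42.5 in labelled libraries 1, 3 and 4, so that the first pair lay above and labelled library 4 below every control. Labelled library 2 was within the range of the controls. Spp1 was the larger part of this sum in the controls, at 48.1 to 61.0. It stood at 184, 47.9, 74.4 and 17.6 in labelled libraries 1 to 4, so the sum leans on this gene. Epcam, an epithelial surface protein, stood at 6.45 to 7.15 in the controls and 30.2, 9.23, 20.1 and 10.6, without overlap. The summed liver markers stood at 18.2 to 21.8 and 28.1, 19.4, 22.4 and 29.2. The part of the makeup of cell types in the levels of the 8 genes was not tested.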

How the data were processed

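Poly(A) RNA (integrity numbers 7.1 to 8.8) was made into libraries with 8 cycles of PCR, per the labels' protocols. Named in the submitters' processing notes are TopHat2 2.0.4 with Bowtie, Cufflinks 2.0.1, CASAVA 1.8 and the builds mm9 and NCBIM37. The sources used here do not give the read length, strand, gene models or scaling option. The authors deposited 1 table of gene FPKM per library with interval bounds and a status, 36448 entries for 36432 gene IDs, and 14 repeated IDs were summed here. The values were divided by 100000. Genes listed at 0 with a status of too much data (8 digestive enzyme genes) are missing estimates and were left out of the fits and the list sums. They were kept as listed in the ranks, the total of all summed FPKM and the counts of genes above 0. Implied fragments are the square of FPKM times 2.0 over the distance from the value to the interval's upper bound, which spans 2 SD. They describe depth, and no count test was run.

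The 11860 genes whose mean was 1 rescaled FPKM or more entered limma 3.58.1 (R 4.3.3), two-sided and with an intensity trend, as log2(rescaled FPKM + 1), with Benjamini-Hochberg adjustment over all genes at 0.05. A second fit subtracted the median of 22 enzymes in each library. Positive values are higher in the labelled libraries. The fit was tested on simulated data whose spread was taken from the controls for both groups. That test does not cover the wide spread of the 8 genes among the labelled libraries. The 8 genes and all lists were chosen with earlier results of these data known. Named genes were the 8, Gata6, the 3 most alike per gene, and from each list those that passed (at most 4) and the 3 of highest mean; others named from the lists were chosen after their values were seen. Not every gene that this rule names is reported here. GENCODE M21 gave exon numbers by gene ID. Cufflinks splits shared fragments by likelihood, so overlapping genes are uncertain. The alternatives are in the closing section.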

Additional observations from a re-analysis of the deposited data

Results flagged for a closer look

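In 3 genes of the stomach list a single labelled library stood apart from the other 3, by a gap larger than Dixon's test allows for 4 samples. Pgc stood at 113.6 rescaled FPKM in labelled library 2, against 2.48 in the next highest labelled library. Gkn3 stood at 56.3 there, against 5.01. Muc6 stood at 6.40 there, against 0.832. For normally spread values chance gives such a gap in about 1 of 20 groups. That rate does not describe these 3 genes, which share a library. They have the highest means of the stomach list, which their levels in labelled library 2 raise. The gap was also looked for in other genes and in both groups. In labelled library 2 Tff2, the trefoil peptide that stomach and pancreas both make, was at 1627 rescaled FPKM, below all controls. The part of stomach RNA in that level was not tested.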

How the results depend on the processing

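Over 23 alternatives the 8 genes gave 183 log2 fold changes, all negative, from -4.49 to -0.26. The count of called genes, 0 under the main settings, was 7 with limma sample weights and 0 to 1 when each library was left out in turn, the 1 being Tff2 without labelled library 4. It was 0 under the other alternatives. The count of genes lower without overlap, 6 under the main settings, was 0 with an equal sum outside the enzymes and the 8 genes, 4 with quantile normalization and 4 with implied totals. It was 6 to 8 when each library was left out, which can only keep or raise such a count. Their median log2 fold change, -3.06, lay between -3.92 and -1.67 when each library was left out, and was -0.89 without labelled libraries 1 and 3. The cause of these changes was not tested.

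Relative to the enzymes, 134 of 143 values in 18 alternatives kept their sign, and none was called. The 9 that turned were small. With a pseudocount of 5, Tff2 was 0.010 and Aqp12 was 0.28. Within the ASK and BSH titles, Sycn was -0.22 and Cuzd1 was -0.039, and within the BKD titles Tff2 was 0.24. With each library left out in turn, Sycn (0.07, with all libraries) lay between -0.10, without labelled library 4, and 0.20. Tff2 (-0.02) lay between -0.20 and 0.11, and was positive without control 3, labelled library 2 and labelled library 3.

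The number of genes called among all 11860 was 26 higher and 23 lower. It was 2316 and 1478 with sample weights, 1366 and 1200 without labelled library 4, 4 and 1 with the title prefix as a covariate, and 6 and 0 with implied totals. Aqp8 gave no value at a minimum mean of 5, and sample weights could not be fitted relative to the enzymes. No paired analysis was possible because the replicate numbers follow accession order and pair no samples. Depth limits Aqp8 and Aqp12 in labelled library 1, with 3.48 and 17.0 implied fragments.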
